A study of Mus musculus with 10 samples.

Results

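Between the second and the third day of doxycycline (Dox), genes of the two-cell embryo and of the germ line rose in *Max*-null mouse embryonic stem cells (ESCs). Of the smaller group that fell, a few were nucleolar, polyamine or small nucleolar RNA host genes. The arrays compared here are those of days 3 and 4 of Dox against those of days 1 and 2, 2 arrays a side and 4 of the 10 arrays of the series. They were chosen by their labels, all 4 being of 1 array set and of cells kept in LIF+serum, that is serum medium with leukaemia inhibitory factor. Of 45037 probe sets, 152 were higher on days 3 and 4 (0.338% of those tested) and 41 were lower (0.091%) at an adjusted p under 0.05 from limma. Among single genes, *Usp17la*, *Tex101* and *Gm7969* rose 16.7-fold, 16.5-fold and 15.9-fold, and *Hpdl* and *Gng10*, the genes that fell most, were 4.30-fold and 4.21-fold lower.

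*Max*-null ESCs are male cells of strain 129SV in which both copies of endogenous *Max* are disrupted, also on the untreated arrays, and which live on a *Max* cDNA under a tetracycline-off system that Dox, at 1 µg/ml, silences. The sources used here do not say whether the line is 1 clone. The other arrays are an untreated one of the same set, a second set with its own untreated array and Dox for 6 and 8 days in LIF+serum, and a pair in 2i medium, with and without Dox for 6 days. In 2i the cells are held by inhibitors of MEK and GSK3. Each day is 1 array, so the spread within a side includes the change from 1 day to the next, and a p-value here speaks of the spread of 4 single arrays, part of which may be technical.

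MAX is the shared partner of MYC, of the MXD proteins and of MGA, and these dimers bind the E-box sequence CACGTG. MYC-MAX drives genes of growth such as those of ribosome assembly and polyamine synthesis. MGA-MAX belongs to the Polycomb complex PRC1.6, which keeps germ cell genes silent in ESCs. Two-cell embryo genes are the transcripts made when the mouse embryonic genome is first read. They are seen in rare cells of an ESC culture, and a bulk array does not tell more cells with a transcript from more transcript per cell.

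Values are log2 levels from robust multi-array analysis (RMA), a normalization over arrays, and each gene was read from its brightest probe set. Array medians of the 4 arrays lay between 5.31 and 5.34. The 3′ excess of beta-actin, which grows as RNA shortens, was 0.52 to 0.56 (log2) on all 4. Defining ESC genes were high throughout: *Pou5f1* lay between 12.36 and 12.79 and *Sox2* between 11.83 and 12.34. Of 16 fibroblast and feeder markers none passed the test, and the collagen gene *Col1a1* lay between 4.38 and 4.46. The markers had a median difference of 0.07 (log2) between the sides, 11 of the 16 were above 0, and the largest difference was 1.45. Before adjustment 4 of the 16 had a limma p under 0.05 upward and 0 downward, against 8.76% of all genes upward. The summed linear level of the 16 markers was 2188 and 2748 on days 1 and 2 and 3228 and 4230 on days 3 and 4. Fibronectin (*Fn1*), a gene that ESCs also express, made up 74.5% to 82.3% of it. The part of these markers in the results was not tested. Of 9 blood cell markers none passed. *Max* was read at 5.53 and 5.60 on days 1 and 2 and at 5.07 and 5.20 on days 3 and 4 (adjusted p = 0.318 from limma), and the sources used here do not say whether its probe set reads the disrupted gene, the cDNA or both, so it checks nothing.

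Within days 1 to 4 the largest number of probe sets changed from day 2 to day 3. From 1 array to the next, 538 probe sets (1.19%) were at least 2-fold higher and 206 (0.457%) at least 2-fold lower on day 3 than on day 2. From day 3 to day 4 these counts were 211 (0.469%) and 70 (0.155%), and from day 1 to day 2 they were 206 (0.457%) and 347 (0.77%). From the untreated array to day 1 they were 1387 (3.08%) and 197 (0.437%), and that untreated array stood apart: the second untreated array correlated less with it (Pearson's r of 0.965 over probe sets) than with days 1 and 2 (0.976 and 0.977). By size alone, 557 probe sets (1.24%) were at least 2-fold higher on days 3 and 4 than on days 1 and 2 with no overlap between the sides, and 205 (0.455%) at least 2-fold lower. The test called 85 genes higher and 25 lower when each gene was read from 1 probe set. Those are 0.467% and 0.137% of 18193 genes, the shares beside which the counts of the gene lists below can be read. Of those 85, 10 belonged to the two-cell list, 8 to a germ cell list and 67 to neither. The 67 are outside the fixed lists only, and include *Ubtfl1*, a gene of the preimplantation embryo, and *Spesp1*, a gene of sperm. Of the 25 genes called lower, 7 belonged to any list. On day 4, 73 of the 85 stood above day 3, as did 9021 of all 18193 genes. The count depended on single arrays: 0 probe sets passed in either direction without the day 4 array, although 1625 higher and 1569 lower had an unadjusted p under 0.05. Without day 1, day 2 or day 3 there were 58, 36 and 82 higher and 4, 3 and 1 lower.

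**Figure D1:**
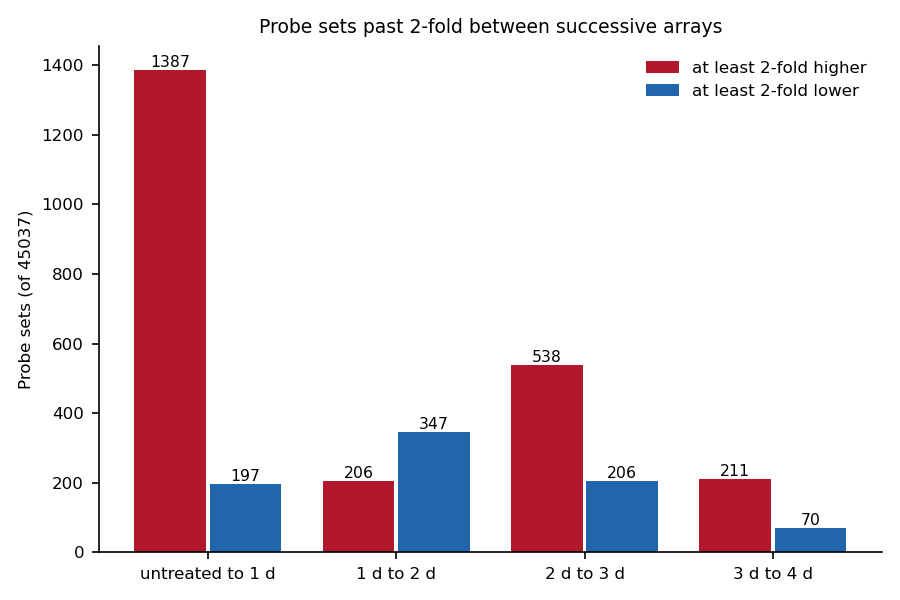
Probe sets (vertical axis, of 45037) at least 2-fold higher (red) or lower (blue) from 1 array to the next in the first LIF+serum set, 1 array per day (horizontal axis). The 2 d to 3 d step holds 538 higher and 206 lower, more of the former than the steps on either side of it, and the step from the untreated array to day 1 holds 1387 higher.

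Of 19 measured two-cell embryo genes (of 34 listed) 10 rose and none fell, with a median difference of 2.45 (log2) against -0.02 over all probe sets. Some of the list's genes were picked out by the study on these same arrays, so their direction is not independent evidence. They changed little over the first days. Their median step was -0.19 from day 1 to day 2 and 2.06 from day 2 to day 3, where 13 of the 19 were at least 2-fold higher, and none had moved 2-fold at an earlier step. *Usp17la*, which encodes a deubiquitinase, was read at 7.93 and 7.31 on days 1 and 2 and at 11.10 and 12.27 on days 3 and 4. Both later arrays thus lay far above both earlier ones and above the untreated level of 8.31 (difference 4.06, standard error 0.38, adjusted p = 0.0131 from limma). *Gm7969* was read at 4.57 and 4.42, then at 8.21 and 8.77 (difference 4.00, standard error 0.22, adjusted p = 0.00503), and its other probe sets moved by 2.62 and 4.17.

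*Tcstv1*, of a family transcribed in the two-cell embryo, was read at 3.70 and 3.46 and then at 6.99 and 8.04. It was 15.3-fold higher (adjusted p = 0.00988 from limma), and its relative *Tcstv3* was read at 4.09 and 4.17 and then at 6.24 and 7.41 (adjusted p = 0.0338). *Zfp352*, a zinc finger gene of this stage, was read at 6.88 and 6.77 and then at 8.89 and 10.12 (adjusted p = 0.0391), and its second probe set at 5.28 and 5.29 and then at 8.73 and 10.09 (difference 4.13, adjusted p = 0.0132). All of these were higher on day 4 than on day 3. *Arg2*, the mitochondrial arginase, was read at 5.64 and 5.55 and then at 8.31 and 9.19 (8.94-fold, adjusted p = 0.0124). The nuclear body protein gene *Sp110* and *Spz1*, a basic helix-loop-helix zipper gene also of the testis, rose by 2.70 and 1.87, and *Gm20767* and *AF067063*, for which no role is given here, by 3.72 and 2.89 (adjusted p from 0.0086 to 0.0409). The other probe sets of *Sp110* differed by only -0.02 and 0.15.

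*Duxf3*, the *Dux* gene that activates two-cell transcripts, did not pass. It was read at 4.90 and 4.37 on days 1 and 2 and at 5.60 and 6.43 on days 3 and 4 (difference 1.38, standard error 0.30, adjusted p = 0.121 from limma). *Bex6* was read at 3.51 and 2.67 and then at 4.73 and 6.36 (adjusted p = 0.102), and *Tdpoz1* at 3.72 and 2.87 and then at 4.63 and 5.38 (adjusted p = 0.0947). In all 3 the sides did not overlap. *Dppa2* and *Dppa4*, which act upstream of *Dux*, were high on all 4 arrays, with differences of 0.48 and 0.02, and *Eif1a*, a translation initiation factor gene, differed by -0.31. The *Usp17l*, *Tcstv* and *Tdpoz* families and the *AF067061*-like genes have near-identical copies, so a probe set may read several members. Without day 1 the test called 4 of the 19 genes, without day 2 it called 2, without day 3 it called 10 and without day 4 it called 0, while 16 of them had an unadjusted p under 0.05 in the comparison as run.

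**Figure D2:**
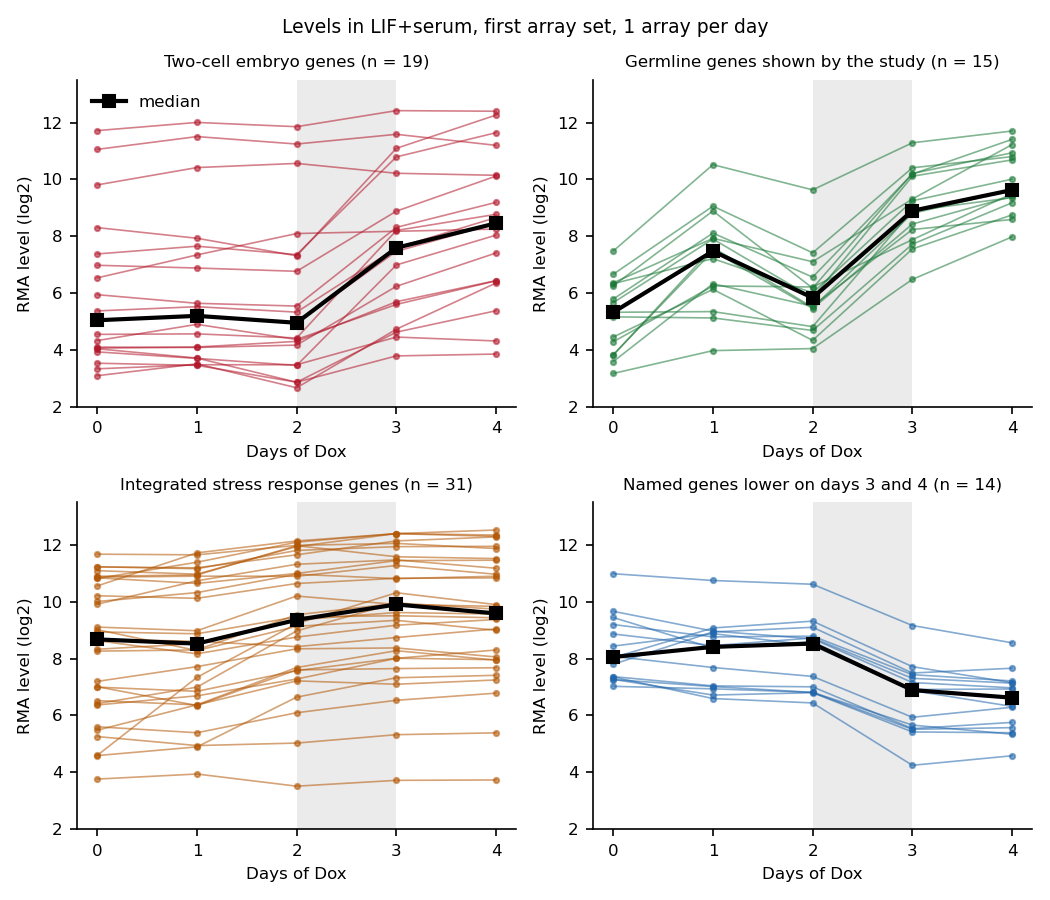
Log2 RMA levels (vertical axes) against days of Dox (horizontal axes, untreated at 0) in the first LIF+serum set, 1 array per day, with 1 coloured line per gene, the median as black squares and the step from day 2 to day 3 shaded. The median of the two-cell genes is flat to day 2 (5.05, 5.20 and 4.96) and then 7.60 and 8.46. That of the germline genes goes from 5.33 to 7.48, 5.84, 8.90 and 9.63, and the stress response genes gain mostly from day 1 to day 2. The 14 named lower genes drop from day 2 to day 3, a step that their choice by the test favours.

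The germline genes took another course. All 15 measured genes of the germline list were at least 2-fold higher on days 3 and 4 with no overlap, with a median difference of 2.92 (log2), and 5 passed the test: *Tex101*, *Tdrd9*, *Sycp2*, *Mov10l1* and *Tex11*. The list is one the authors drew up from these very arrays, so its direction is no independent evidence. From the first untreated array, the one that stood apart, to day 1, 11 of the 15 were at least 2-fold higher. From day 1 to day 2 14 of the 15 were lower, 8 of them at least 2-fold, and from day 2 to day 3 all 15 were at least 2-fold higher. The list median was 5.33 on the first and 5.78 on the second untreated array, against 7.48 and 5.84 on days 1 and 2. The gap between days 1 and 2 was 1.20 in the median germline gene, 0.24 in the median two-cell gene and 0.20 in the median gene. A wide gap within a side lowers what the test can call: 10 of the 15 missed the threshold (adjusted p from 0.0538 to 0.155), all 15 had an unadjusted p under 0.05, and the test called 8 of them without day 1, 1 without day 2, 5 without day 3 and 0 without day 4.

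*Tex101*, which encodes a surface protein of testicular germ cells, had the largest difference of the list. It was read at 5.35 and 4.82 on days 1 and 2 and at 8.90 and 9.36 on days 3 and 4 (difference 4.04, standard error 0.24, adjusted p = 0.00503 from limma), with no rise on day 1 over the untreated 5.33. *Tdrd9*, a helicase gene of piRNA production, was likewise flat at first and was read at 5.13 and 4.69 and then at 7.72 and 9.18 (11.7-fold, adjusted p = 0.0292). *Taf7l*, a germ cell form of a general transcription factor subunit, did rise and dip. Its level was 5.67 untreated, 7.90 on day 1, 5.84 on day 2, and 10.11 and 10.69 on days 3 and 4, and with day 1 so far above day 2 it did not pass (difference 3.53, standard error 0.58, adjusted p = 0.064). *Hormad1*, of the meiotic chromosome axis, went from 3.82 to 7.60, 5.50, 8.81 and 9.63 (adjusted p = 0.132), and *Stk31*, a Tudor-domain kinase gene, from 3.84 to 7.48, 5.46, 8.43 and 9.40 (adjusted p = 0.155). *Ddx4*, the *Vasa* homologue, went from 6.67 to 9.06, 7.42, 10.41 and 10.80 (adjusted p = 0.0962). In these 4 genes day 1 lay nearer to day 3 than day 2 did.

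*Dazl*, an RNA-binding protein gene, was read at 8.11 and 6.56 and then at 10.19 and 11.41 (adjusted p = 0.0538 from limma). *Stra8*, needed to enter meiosis, was read at 7.93 and 7.10 and then at 9.31 and 11.23, the widest gap between days 3 and 4 of the list (adjusted p = 0.102). The synaptonemal complex genes differed among themselves. *Sycp2* was read at 3.98 and 4.05 and then at 6.48 and 7.98 (difference 3.22, adjusted p = 0.0364), *Sycp1* at 6.13 and 4.34 and then at 7.56 and 8.75 (adjusted p = 0.0993), and *Sycp3*, already high at 10.52 and 9.63, at 11.29 and 11.71 (difference 1.42, adjusted p = 0.111). *Mov10l1*, a piRNA helicase gene, was read at 7.21 and 6.01 and then at 9.25 and 10.01 (adjusted p = 0.0386), and *Tex11*, a crossover factor gene, at 6.33 and 5.54 and then at 8.24 and 8.59 (adjusted p = 0.0234).

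Promoters of these genes are shown because the E-box is the sequence that MAX dimers bind. Each line gives RefSeq bases 180 to 1 before the start site on mouse build GRCm38.p6, 5′ to 3′ on the gene's strand, with the E-box CACGTG and the E2F motif GCGGGAA in capitals.
*Tdrd9*, chr12:111971379-111971558, plus strand: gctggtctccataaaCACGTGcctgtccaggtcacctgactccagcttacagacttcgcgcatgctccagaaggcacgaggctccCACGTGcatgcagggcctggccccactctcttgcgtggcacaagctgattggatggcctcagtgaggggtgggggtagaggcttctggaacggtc
*Taf7l*, chrX:134476491-134476670, minus strand: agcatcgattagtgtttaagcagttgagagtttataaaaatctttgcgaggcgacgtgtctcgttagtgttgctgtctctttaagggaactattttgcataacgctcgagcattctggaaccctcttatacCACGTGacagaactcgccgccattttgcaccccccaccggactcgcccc
*Ddx4*, chr13:112652311-112652490, minus strand: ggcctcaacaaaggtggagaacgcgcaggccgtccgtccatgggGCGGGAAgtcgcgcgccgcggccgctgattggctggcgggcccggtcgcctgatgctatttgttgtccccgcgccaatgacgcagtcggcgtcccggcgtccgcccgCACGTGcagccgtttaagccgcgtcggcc
*Tex101*, chr7:24672051-24672230, minus strand: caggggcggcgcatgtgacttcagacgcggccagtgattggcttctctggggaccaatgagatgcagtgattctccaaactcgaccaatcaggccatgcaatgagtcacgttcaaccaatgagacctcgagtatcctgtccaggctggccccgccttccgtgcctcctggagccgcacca
*Tdrd9* held E-boxes that begin 165 and 95 bases before the start, *Taf7l* 1 that begins 49 bases before it and *Ddx4* 1 that begins 29 bases before it, with its E2F motif at 136. *Tex101*, the member with the largest difference, held neither motif.

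The E-box CACGTG, the E2F motif GCGGGAA and the T-box motif AGGTGTGA were searched on both strands of the 250 bases before each start, and none of the 3 contains another. Of the 15 germline genes, 13 had a RefSeq promoter, and 9 of those (69.2%) held the E-box, 3 (23.1%) the E2F motif and 1 (7.69%) the T-box motif. Over all 27025 genes of the promoter table these shares were 6.86%, 4.38% and 1.30%, and over the 14452 of the 18193 measured genes that had a promoter (79.4%) they were 8.73%, 6.57% and 1.11%. Of the genes at least 2-fold lower with no overlap, 82 of 102 had a promoter, and 6 (7.32%) held the E-box. For the genes at least 2-fold higher the same check is void, because only 240 of 315 (76.2%) had a promoter. A match is a run of letters and not a site bound in these cells.

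Other germ cell lists moved less. Of 33 other meiotic prophase genes 1 rose and none fell, with a median difference of 0.50 (log2). It was *Majin*, named after its value was seen, which tethers meiotic telomeres to the nuclear envelope, read at 5.87 and 6.06 and then at 7.18 and 7.07 (adjusted p = 0.0482 from limma). *Meioc*, which holds cells in prophase, was read at 3.86 and 4.11 and then at 5.04 and 6.91 (adjusted p = 0.169), and the cohesin gene *Stag3* at 9.02 and 8.01 and then at 10.12 and 10.42 (adjusted p = 0.0785). Of the 33, 28 had a difference above 0 and 10 were at least 2-fold higher with no overlap (1.24% of all probe sets were). Before adjustment 17 had a limma p under 0.05 upward and 1 downward, against 8.76% and 7.13% of all genes. Of 21 piRNA and germ granule genes, with a median of 0.32, 17 were above 0 and 7 at least 2-fold higher with no overlap. Before adjustment 9 had a limma p under 0.05 upward and 0 downward, but none of the 21 passed. *Mael*, of the nuage, came near with 8.73 and 7.62 against 10.22 and 10.45 (adjusted p = 0.0535). Of 14 genes of primordial germ cell specification, with *Ddx4* in both lists, none passed, and *Prdm1*, *Dppa3* and *Prdm14* differed by 0.84, 0.93 and 0.86 (adjusted p from 0.108 to 0.143). Before adjustment 5 of the 14 had a limma p under 0.05 upward and 0 downward.

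Of 15 testis-specific paralogues of housekeeping genes, which testis cells use in place of widely expressed forms, 2 rose. *Nxf2*, an X-linked RNA export gene, had a mean of 5.28 on days 1 and 2, with day 1 the higher at 5.56, and was then read at 7.62 and 8.86 (difference 2.96, adjusted p = 0.0365 from limma). *Pdha2*, the testis form of a pyruvate dehydrogenase subunit, was read at 4.44 and 5.30 and then at 7.27 and 7.86 (difference 2.70, adjusted p = 0.0264). The median over the 15, of which *Taf7l* and *Slc25a31* are also germline list members, was 0.04 (log2).

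Among the 15 genes with the largest rise, several lie outside these lists. *Ubtfl1*, an HMG-box gene of the preimplantation embryo, was read at 4.16 and 2.81 and then at 6.86 and 8.00 (15.5-fold, adjusted p = 0.032 from limma). *Spesp1*, of the sperm equatorial segment, was read at 6.35 and 5.95 and then at 9.36 and 10.48 (13.6-fold, adjusted p = 0.0128), and *Crispld2*, a secreted cysteine-rich protein gene, at 6.41 and 6.12 and then at 9.20 and 9.56 (8.66-fold, adjusted p = 0.00503). In all 3 both later arrays lay more than 2-fold above both earlier ones. *AF067061* was read at 9.45 and 8.90 and then at 12.46 and 13.24, and *BC080696*, *9530059O14Rik* and *Speer4cos*, for which no role is given here, rose 13.8-fold, 10.9-fold and 9.85-fold (adjusted p from 0.00988 to 0.0338). The other probe set of *9530059O14Rik* differed by only 0.19 (log2). Of the 15 genes, 2 were read from a probe set whose name marks possible matches to several transcripts.

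*Txnip*, which slows glucose uptake and is controlled by MLX partners of the same transcription factor network, was the 1 of 15 MYC, MXD and MLX network genes that rose. It was read at 9.45 and 9.70 on days 1 and 2 and at 11.39 and 11.76 on days 3 and 4 (difference 2.00, standard error 0.20, adjusted p = 0.0163 from limma). *Myc* itself was read at 9.63 and 8.08 and then at 9.93 and 9.85, with day 1 near the later arrays (adjusted p = 0.358). *Fos*, an immediate early transcription factor gene, was the 1 of 23 FGF-ERK and immediate early genes that rose, from 6.53 and 6.27 to 7.64 and 7.63 (adjusted p = 0.0423). *Mitf*, a regulator of lysosomal genes and of pigment cells, was the 1 of 29 lysosome and autophagy genes, from 7.59 and 7.76 to 8.82 and 9.17 (adjusted p = 0.0452). Its other probe set moved by 0.84. *Mitf* was read at 6.12 on the first untreated array and at 8.36 on the second, so that days 3 and 4 lay less than 2-fold above the second. At days 6 and 8 its difference from the second untreated array was 0.29 (adjusted p = 0.76 from limma).

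The lower genes had their main step between day 2 and day 3. All 25 genes called lower were at least 2-fold lower on day 3 than on day 2, and none moved 2-fold from day 3 to day 4. The test favours genes with small gaps within a side, so this timing follows in part from how the genes were chosen. All 85 genes called higher likewise had a 2-fold step from day 2 to day 3. Of the 25, 20 had already been lower on day 1 than on the first untreated array (2 of them at least 2-fold, median step -0.33 on the log2 scale). On days 3 and 4 all 25 lay below both untreated arrays. *Hpdl*, a mitochondrial dioxygenase-like gene, was read at 6.59 and 6.44 on days 1 and 2 and at 4.24 and 4.58 on days 3 and 4 (adjusted p = 0.0124 from limma). *Gng10*, a G protein gamma subunit gene, was read at 8.88 and 8.46 and then at 6.87 and 6.32 (adjusted p = 0.0264). Other mitochondrial genes among them were *Ptpmt1*, a phosphatase of cardiolipin synthesis, with 8.76 and 8.79 against 7.43 and 7.21 (adjusted p = 0.0268), and *Chchd4*, of protein import and named after its value was seen, with 10.97 and 10.98 against 9.88 and 9.84 (adjusted p = 0.0453).

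Of 14 snoRNA host noncoding RNA genes, whose introns carry small nucleolar RNAs, 2 fell and all 14 had a difference below 0, with a median of -0.78 (log2). Against the first untreated array, the one that stood apart, 12 of the 14 were higher on day 1, 5 of them at least 2-fold. Their median level was 8.52 there, then 9.51 and 9.81 on days 1 and 2 and 8.87 and 8.59 on days 3 and 4. The second untreated array had a median of 9.95, above days 1 and 2, so the list showed no early rise against it. Days 3 and 4 thus lay near the first untreated median and below the second. Of the 14 genes, 5 lay below both untreated arrays on days 3 and 4. *Dancr* was read at 9.08 and 9.32 and then at 7.71 and 7.15 (difference -1.76, standard error 0.23, adjusted p = 0.0338 from limma). *Snhg4* was read at 8.94 and 9.10 and then at 7.49 and 7.66 (difference -1.44, standard error 0.17, adjusted p = 0.028). Both stood lower on the first untreated array, at 8.03 and 7.80, than on days 1 and 2, but at 9.99 and 9.91 on the second, so that days 3 and 4 lay less than 2-fold below the first untreated array and more than 2-fold below the second. *Snhg16* and *Snhg3* differed by -1.11 and -1.05 and did not pass (adjusted p = 0.146 and 0.0703), although a second probe set of *Snhg16* did, with a difference of -1.68 (adjusted p = 0.0252).

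Of 37 ribosome biogenesis genes 2 fell, 35 had a difference below 0, and the median was -0.42 (log2). Over all genes 0.137% were called lower and 49.7% had a difference above 0. *Nolc1*, a nucleolar chaperone gene, was read at 10.05 and 10.36 and then at 9.00 and 8.95 (adjusted p = 0.0484 from limma), and *Nop10*, of the H/ACA particles that modify ribosomal RNA, at 12.16 and 12.12 and then at 11.10 and 10.96 (adjusted p = 0.0499). *Nop16* was next with 9.64 and 9.44 against 8.50 and 8.19 (adjusted p = 0.0555). By contrast the 33 cytosolic ribosomal protein genes had a median difference of 0.02 and none passed. Of 21 polyamine and nucleotide synthesis genes 1 fell. It was the spermidine synthase gene *Srm*, read at 11.14 and 11.43 and then at 10.02 and 9.94 (adjusted p = 0.0409), and *Dhodh* and *Cad*, of pyrimidine synthesis, differed by -0.96 and -0.88 (adjusted p = 0.0764 and 0.101). The median over the 21 was -0.46.

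*Tfap4*, a transcription factor gene that MYC activates, was read at 6.72 and 6.80 and then at 5.42 and 5.39 (adjusted p = 0.0284 from limma). *Phlda2*, an imprinted gene that restrains placental growth, was the 1 of 28 imprinted genes that fell, from 10.75 and 10.62 to 9.16 and 8.55 (adjusted p = 0.0338). *Krt17*, a keratin gene, was the 1 of 23 cadherin and epithelial-mesenchymal genes, from 7.01 and 6.81 to 5.66 and 5.34 (adjusted p = 0.0384), but its other probe set differed by 0.04 and the mean over both did not pass (adjusted p = 0.0953). *Tlcd1*, *Ydjc*, *Mcrip2*, *Zbtb12*, *Comtd1* and *Septin6* fell by 1.33 to 1.77 on the log2 scale, with adjusted p from 0.0182 to 0.0443. For each of the 14 described genes among the 15 that fell most, leaving out any 1 of the 4 arrays took the adjusted p above 0.05.

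No gene passed the test in the other 29 of the 41 lists, whose medians lay between -0.54 and 0.46 (log2). Among 28 core and naive pluripotency genes 25 had a difference above 0, 14 had an unadjusted p under 0.05 upward and none downward, and the median was 0.42. *Nanog* was read at 11.46 and 11.47 and then at 11.74 and 11.46 (adjusted p = 0.806 from limma), and *Tbx3*, with the largest difference of the list, at 7.98 and 8.85 and then at 9.53 and 9.74 (adjusted p = 0.136). Over all 18193 genes 49.7% had a difference above 0 and 8.76% an unadjusted p under 0.05 upward. In the trophectoderm and the primitive endoderm list the members went both ways, with 12 of 21 and 10 of 20 above 0 and medians of 0.04 and 0.02. *Krt7*, a simple keratin and the highest difference of the former, was read at 4.42 and 4.89 and then at 5.36 and 6.58 (adjusted p = 0.2), and *Sox7*, the lowest of the latter, at 5.28 and 5.03 and then at 3.82 and 4.36 (adjusted p = 0.107).

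Genes of the integrated stress response, the programme by which cells meet amino acid shortage and endoplasmic reticulum stress, had their larger step a day earlier. From day 1 to day 2, 28 of 31 were higher, 8 of them at least 2-fold, with a median step of 0.65 (log2), and from day 2 to day 3 27 of the 31 were higher, 1 of them at least 2-fold, with a median step of 0.30. Over the sides as compared, 30 of the 31 had a difference above 0. The second untreated array had a list median of 9.26, the first one of 8.67. These medians compare with 8.53 and 9.36 on days 1 and 2 and with 9.90 and 9.59 on days 3 and 4. Day 2 thus lay near the second untreated median. On days 3 and 4, 18 of the 31 genes lay above both untreated arrays. At days 6 and 8 the median difference from the second untreated array was -0.08, with 1 gene called higher and 0 lower (limma). *Chac1*, which degrades glutathione, was read at 6.99 and 8.97 on days 1 and 2 and at 9.96 and 9.74 on days 3 and 4 (adjusted p = 0.205 from limma). *Nupr1*, a stress-induced chromatin protein gene, was read at 4.59 untreated, then at 7.34, 9.23, 10.32 and 9.90 (adjusted p = 0.203). Day 2 thus lay nearer to day 3 than to day 1 in both, and the comparison of sides does not capture that course. Of 16 oxidative stress response genes 15 had a difference below 0, with a median of -0.54, and the metallothionein gene *Mt1* was read at 12.30 and 12.23 and then at 11.30 and 11.12 (adjusted p = 0.0587).

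**Figure D3:**
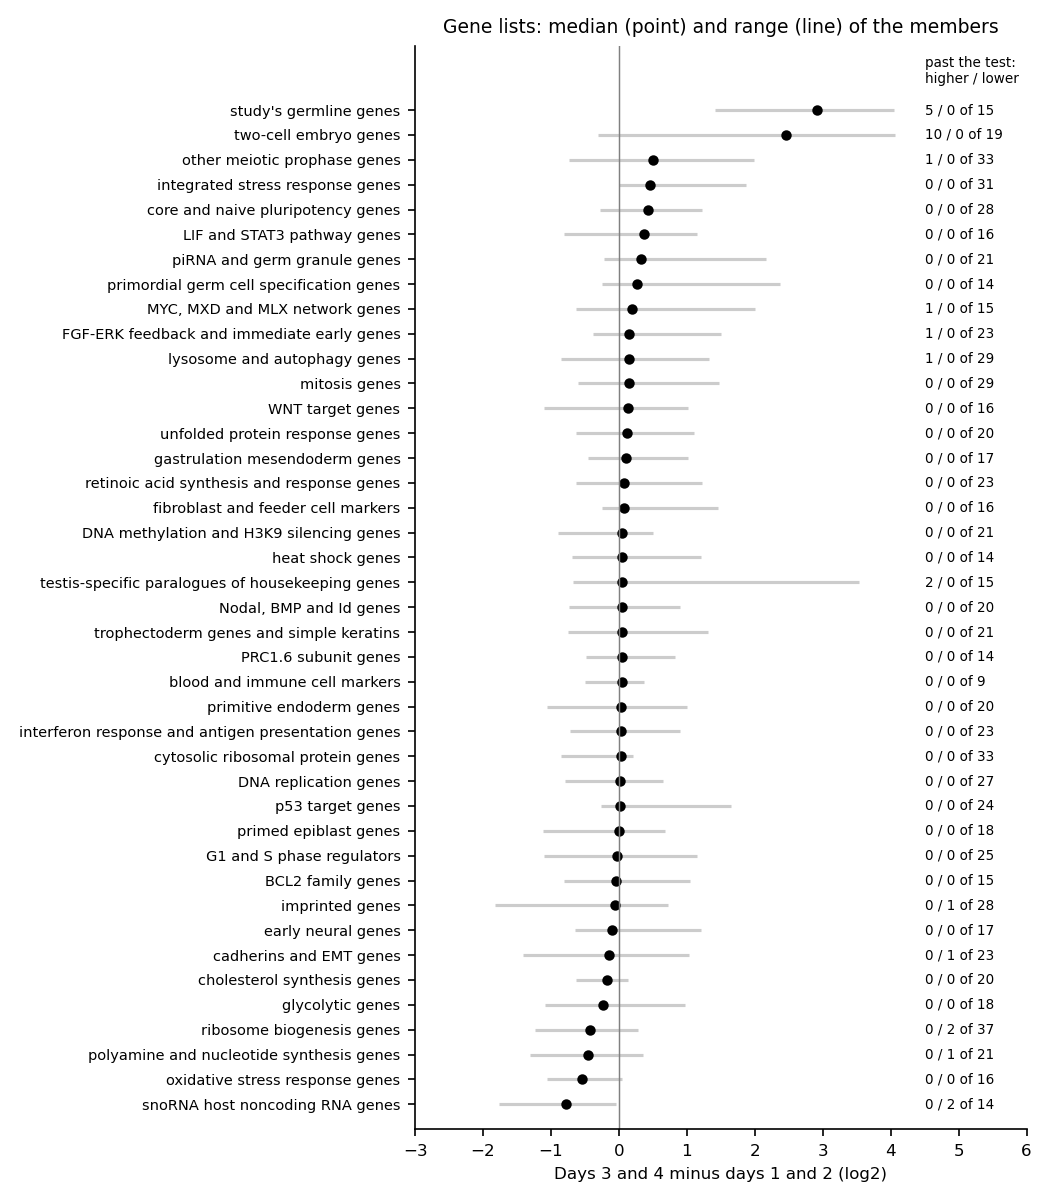
Difference of days 3 and 4 from days 1 and 2 (log2, horizontal axis) for 41 gene lists (vertical axis), with the median of the measured members as a point, their range as a line, and at the right how many passed the limma test higher and lower of how many measured. The germline list (2.92) and the two-cell list (2.45) lie apart from all the others, and the snoRNA host list (-0.78) is the lowest.

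The arrays of days 6 and 8 and the second untreated array gave the same genes a second reading. In a limma fit over the 8 LIF+serum arrays, days 6 and 8 against the second untreated array, 2344 probe sets were higher (5.2%) and 2056 lower (4.57%). Of the 152 probe sets higher on days 3 and 4, 116 (76.3%) were among those higher, which is 4.95% of the 2344, none was called lower, and their median difference was 2.82 (log2). Of the 41 lower ones 37 (90.2%) were lower again, 1.80% of the 2056, and none was called higher. That fit takes part of its error from the spread between days 1 and 2 and between days 3 and 4, on which the probe sets had been chosen. A limma fit of days 6 and 8 and the second untreated array alone, added after seeing the data, called 1496 higher (3.32%) and 1056 lower (2.34%) in all, and 110 of the 152 and 30 of the 41 the same way. In the fit over 8 arrays the counts were 113 and 31 without the day 6 array and 120 and 39 without the day 8 array. The 3′ excess of beta-actin was 0.88 on the second untreated array and 1.46 and 1.22 on days 6 and 8; its part in these counts was not tested.

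All 15 germline genes and 14 of the 19 two-cell genes were higher at days 6 and 8 (limma). *Gm7969* went on to 10.11 and 11.42 from 4.44 on the second untreated array (difference 6.32, adjusted p = 6.4e-04 from limma), and *Stra8* to 13.06 and 13.28 from 7.77. *Duxf3*, which had not passed in the window, was read at 5.05 untreated and at 8.26 and 7.25 (adjusted p = 0.0096). Among the lower genes *Krt17* was read at 7.82 untreated and at 4.20 and 4.00, and *Dancr* at 9.99 and at 6.31 and 5.98. *Nop10* and *Hs6st2*, the latter an enzyme gene of heparan sulfate, both named after their values were seen, were the 2 genes called lower in the window that did not pass there (adjusted p = 0.053 and 0.099).

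Of the 85 genes called higher, 20 were on average less than 2-fold above the second untreated array at days 6 and 8. In 17 of the 20 day 8 lay below both day 3 and day 4, and in 11 day 6 did so too. In 10 of the 20 the second untreated array itself stood at least 2-fold above the first. The examples were chosen after their values were seen, except *Pdha2*. *Slc11a1*, a metal ion transporter gene of macrophage endosomes, was read at 5.74 and 5.91 on days 1 and 2, at 8.49 and 8.67 on days 3 and 4, and at 7.71 and 6.00 on days 6 and 8, against 6.40 and 6.62 untreated. Its difference in the window was 2.76 (adjusted p = 0.00503 from limma) and that of days 6 and 8 was 0.24 (adjusted p = 0.84). *Trpm1*, a cation channel gene of pigment cells and retina, was read at 8.63 and 8.43 on days 3 and 4 and at 7.12 and 5.89 on days 6 and 8, against 5.41 and 6.32 untreated. *Ryr3*, a calcium release channel gene, was read at 7.85 and 8.37 and then at 7.66 and 5.98, against 5.39 and 7.67 untreated, so that its window level was less than 2-fold above the second untreated array. *Pdha2* was read at 7.27 and 7.86 and then at 7.07 and 5.67, against 4.35 and 5.52 untreated. In each of these 4 genes day 8 was below day 6. Whether the change from the window to the later arrays exceeds the difference between the array sets was not tested.

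In 2i, where each condition is 1 array and there is no test, Dox for 6 days left 548 probe sets at least 2-fold higher (1.22%) and 811 at least 2-fold lower (1.8%). Of the 152 probe sets higher on days 3 and 4 in LIF+serum, 24 (15.8%) were at least 2-fold higher, with a median difference of 0.12 (log2), and of the 41 lower ones 2 (4.88%) were at least 2-fold lower. The germline and the two-cell lists differed here. Of the 15 germline genes 12 were at least 2-fold higher: *Tdrd9* was read at 5.93 without and at 9.12 with Dox, and *Mov10l1* at 6.43 and 9.89. Of the 19 two-cell genes 4 were at least 2-fold higher and 4 at least 2-fold lower, and *Usp17la* was read at 10.35 without and 10.07 with Dox and *Gm7969* at 8.64 and 7.34. The median of the two-cell genes was 6.81 on the untreated 2i array, against 5.05 and 4.83 on the untreated arrays in LIF+serum. That of the germline genes was 6.47, against 5.33 and 5.78. The part of these levels in the difference between the lists was not tested. The sources used here do not say whether the 2i arrays were normalized with the others, and their medians were 5.14 and 5.17, below the rest. Among lower genes, *Hpdl* was read at 6.96 and 6.61 and *Tfap4* at 5.48 and 5.89.

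**Figure D4:**
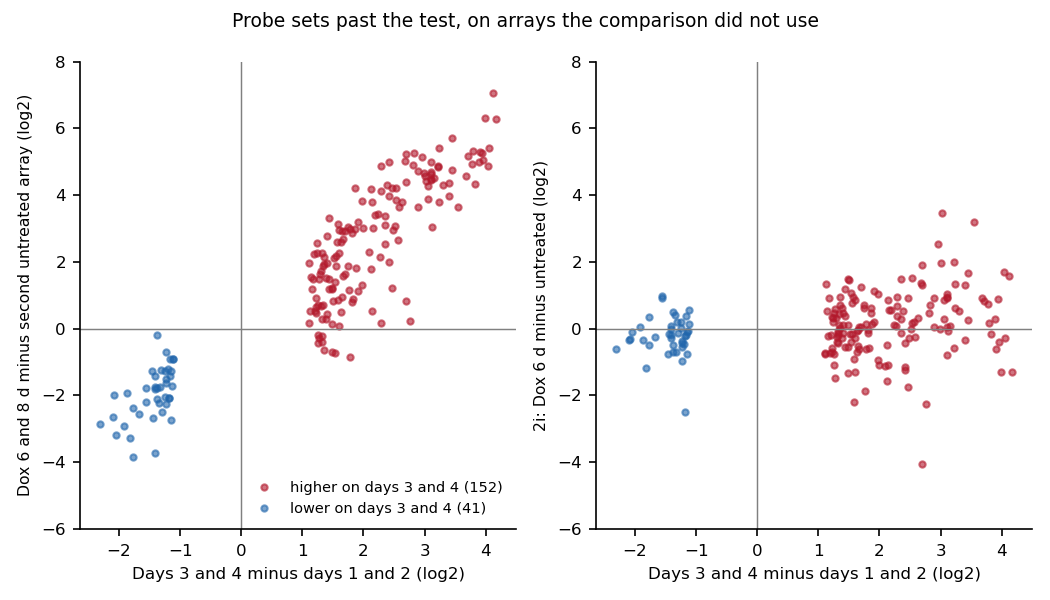
Each point is 1 of the 152 higher or 41 lower probe sets past the test, with its difference of days 3 and 4 from days 1 and 2 (log2, horizontal axes) against its difference at days 6 and 8 from the second untreated array (left) and its difference with Dox in 2i (right). On the left 116 of the higher ones (red) and 37 of the lower ones (blue) passed the second test the same way, while on the right 24 and 2 were past 2-fold the same way.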

How the data were processed

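RNA of 10 cultures of *Max*-null ESCs was read on Affymetrix GeneChip mouse genome arrays. The authors subtracted background and normalized by RMA in R, and deposited values on the log2 scale; the submitters' notes name RMA and affy, with versions not given in the sources used here. The number of arrays, not depth, limits precision. Samples were grouped by their labels. After 64 control probe sets were left out, limma 3.58.1 in R 4.3.3 (lmFit, eBayes) compared days 3 and 4 with days 1 and 2 (2 residual and 5.38 prior degrees of freedom), with Benjamini-Hochberg adjustment over 45037 probe sets at 0.05. A second fit over 8 arrays compared days 6 and 8 with their untreated array (3 residual and 5.69 prior degrees of freedom). A fit of those 3 arrays alone (1 residual and 5.53 prior degrees of freedom) was added after seeing the data. The platform annotation gave 34945 probe sets 1 symbol (18193 genes), 932 several and 9160 none here; genes were named from probe sets with 1 symbol. Named genes were the 15 largest changes each way past the test, up to 4 members of each of 41 lists and the germline and two-cell members; others are marked. *Mir1949*, among the 15 lowest, is a microRNA locus and was not described, since the arrays read no mature microRNA. The members and lists were chosen with earlier results of these data known. Fits were tested on simulated data. Alternatives changed the normalization, filter, fit, fold and arrays.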

Additional observations from a re-analysis of the deposited data

How the results depend on the processing

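No paired analysis was possible because each array is a different day and no label pairs them. The counts of 152 higher and 41 lower probe sets became 395 and 237 with a trended, robust variance, 0 and 0 with a linear slope over days 1 to 4 (3599 and 3365 at an unadjusted p under 0.05), 3102 and 3065 at an unadjusted p under 0.05, and the lower count 64 with all 8 LIF+serum arrays; averaging the probe sets of a gene, which tests fewer features, gave 83 higher. Leaving out 1 array, where the lone array of a side is assumed to vary like the other side, gave 0 to 82 higher and 0 to 4 lower. The 557 and 205 probe sets by size became 237 and 63 averaged per gene and 104 and 5 at 4-fold, and 440 to 890 and 180 to 466 without 1 array. Genes of all lists counted 21 higher and 7 lower, and 0 to 18 and 0 to 0 without 1 array; the two-cell count of 10 ranged from 0 to 10 and the germline count of 5 from 0 to 8. The 30 named genes kept direction in every setting, also with an array left out and with the slope. With the slope none of the 30 passed, and calls were also lost when an array was left out. The cause of these losses was not tested. All 30 genes passed with quantile normalization once more, with the filter on low values and with the trended variance. With all 8 arrays 1 lost its call (*Mcrip2*, adjusted p = 0.0547 from limma), and averaged per gene 2 did (*Krt17* and *Septin6*, 0.0953 and 0.0981).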

Other observations

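Cell cycle genes were read but not described above. None of 25 G1 and S phase regulators passed the limma test between the sides. They went both ways, with 12 of 25 above 0 and a median of -0.03 (log2). Before adjustment 5 had a limma p under 0.05 upward and 6 downward, against 8.76% and 7.13% of all genes. The members named here had the largest differences. *Ccnd1*, the cyclin D1 gene, was read at 9.73 and 9.32 on days 1 and 2 and at 8.59 and 8.25 on days 3 and 4 (adjusted p = 0.0884 from limma), and *Ccne1*, the cyclin E1 gene, at 10.98 and 10.32 and then at 9.75 and 9.50 (adjusted p = 0.146). *Skp2*, which targets cell cycle inhibitors for degradation, differed by -0.98 (adjusted p = 0.16). At days 6 and 8 all 3 were lower than on the second untreated array (adjusted p = 0.0026, 0.025 and 0.016 from limma), among 5 of the list that were lower and 3 that were higher there. Over all 18193 genes 1069 were called lower and 1066 higher there. *Ccnd2*, the cyclin D2 gene, was read at 10.29 on day 1, 7.74 on day 2, and 10.27 and 10.07 on days 3 and 4, so that day 2 stood alone. None of 27 DNA replication genes and none of 29 mitosis genes passed, with medians of 0.02 and 0.14 (log2). *Aurkc*, the aurora kinase gene of meiotic cells, had the largest difference of the latter (1.48, adjusted p = 0.113).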
